A study of Mus musculus with 24 samples.

Results

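The zinc finger cluster of distal mouse chromosome 4 was defined as every row of the count table on chromosome 4 that starts at or after position 145510759 and ends at or before 147702553 of GRCm38, a window of 2.19 Mb. It held 30 of the 35591 genes of the table. The window had been chosen because its genes were higher in lines heterozygous for Smchd1 than in wild-type lines, that is, its members were chosen by the het over wt ratio of these same counts, so the genotype difference inside it is given as a description with no test. The changes over days of differentiation were not the criterion of that choice and were tested. They use the same libraries, so the steps within a genotype are not fully independent of it. Smchd1 encodes a chromatin protein that silences the inactive X chromosome, imprinted genes and clustered gene families. The libraries came from 6 male embryonic stem cell (mESC) lines, each from 1 blastocyst of a cross between a Castaneus (Cast) mother with intact Smchd1 and a C57BL/6 father of genotype Smchd1 del/fl with an MMTV-Cre transgene, a Cre driven by the mouse mammary tumour virus promoter. The 3 wt lines carried the paternal floxed allele (Smchd1 fl/+), which still gives the protein, and the 3 het lines carried the paternal deleted allele (Smchd1 del/+). All lines were first-generation hybrids of both strains, and the mothers' oocytes had a full supply of the protein. The question put by the comparison was whether a single working copy of Smchd1 changes expression. Day 0 was mESCs in DMEM with LIF. The cells were then moved to N2B27 medium with bFGF, the Wnt activator CHIR99021 was added from day 2, and libraries were made on day 2, day 2.5 and day 3, when the culture is described as neuromesodermal progenitors (NMPs), which give rise to spinal cord and trunk mesoderm. Each genotype and day held 3 libraries, 1 from each line, and the same 3 lines were followed over the days.

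Clusters of this kind encode KRAB zinc finger proteins. Their C2H2 zinc fingers, which fold around a zinc ion, read a DNA sequence, often that of a retrotransposon, and their KRAB domain recruits Trim28, which brings the histone methyltransferase Setdb1 and silences the bound element. The family grows by tandem duplication, so neighbouring genes share much of their sequence, and in early embryos and mESCs this silencing keeps endogenous retroviruses off. The distal chromosome 4 cluster is among the younger ones of the mouse, and most of its genes have no assigned target.

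The promoters printed here show what members with separate names have in common. RefSeq promoter windows (250 bases before to 50 after a start site, GRCm38.p6) were matched for 11 of the 19 protein-coding members. The longest run of letters present in all 11, on the gene's own strand, had 15 bases, and a second had 9 bases. The stretches below begin at the first run and end upstream of the RefSeq start site, 100 bases each, 5′ to 3′, with the runs shared by all 11 in capitals. They lie at chr4:147021715-147021814 (plus strand) for Rex2, chr4:147642550-147642649 (minus strand) for Zfp979, chr4:147553141-147553240 (plus strand) for Zfp985, chr4:147305490-147305589 (plus strand) for Zfp988, chr4:147702638-147702737 (minus strand) for Zfp534 and chr4:145585060-145585159 (plus strand) for Gm13212. Zfp984 at chr4:147809843-147809942 (minus strand), the next zinc finger gene outside the window, is shown for comparison.
Rex2: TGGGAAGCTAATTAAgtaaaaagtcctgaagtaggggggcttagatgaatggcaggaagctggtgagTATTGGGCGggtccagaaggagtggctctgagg
Zfp979: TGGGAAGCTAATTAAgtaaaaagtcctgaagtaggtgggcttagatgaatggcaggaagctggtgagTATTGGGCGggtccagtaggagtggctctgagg
Zfp985: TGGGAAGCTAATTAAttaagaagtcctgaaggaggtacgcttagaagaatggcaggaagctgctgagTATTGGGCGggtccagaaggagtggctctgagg
Zfp988: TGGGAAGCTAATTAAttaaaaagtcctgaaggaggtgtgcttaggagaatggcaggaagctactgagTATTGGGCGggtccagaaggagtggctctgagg
Zfp534: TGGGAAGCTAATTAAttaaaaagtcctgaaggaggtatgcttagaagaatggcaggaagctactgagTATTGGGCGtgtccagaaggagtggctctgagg
Gm13212: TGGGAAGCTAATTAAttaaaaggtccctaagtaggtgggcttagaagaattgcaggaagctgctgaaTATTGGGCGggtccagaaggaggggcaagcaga
Zfp984: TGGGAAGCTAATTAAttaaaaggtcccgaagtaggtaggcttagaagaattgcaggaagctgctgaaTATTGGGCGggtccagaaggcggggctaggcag

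The 15-base run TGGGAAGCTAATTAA occurred in 12 of 32851 RefSeq promoters (0.0365%), those of the 11 members and of Zfp984. The 9-base run TATTGGGCG occurred in 39 promoters (0.119%), which included those of 23 symbols other than the members. The 100 bases of Zfp600 were identical to those of Rex2, and Zfp979 matched Rex2 at 98 of 100 aligned bases. Gm13212 and Zfp984 matched it at 85, the lowest value. Of motifs searched on both strands of the 300-base windows, a homeodomain core TAATTA stood in all 11 promoters against 5.29% of all promoters, and lies inside the 15-base run. The ETS core GGAAGT was in all 11 (23.8% of all promoters). The CCAAT box, whose reverse complement overlaps the 9-base run, was in all 11 (37.4%), the GC box GGGCGG in 9 (35.7%) and the TATA box TATAAA in 0 (13.6%). These are matches of letters, and binding was not measured.

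Of the 30 members, 19 were annotated as protein coding, 16 of them with a Zfp symbol beside Rex2, Gm13212 and Gm21411, and 11 were long noncoding or antisense RNAs. In the longest annotated coding sequence, 18 of the 19 held C2H2 finger repeats, with a median of 11 and a range from 0 in Gm21411 to 20 in Gm13212. A KRAB-box pattern was found in 17 of the 19, the exceptions being Zfp981 and Zfp989. The likeness extends to the transcripts. Of all 75-base stretches in a member's longest transcript, the share unique to that member ran from 12.6% in Zfp987 to 95.3% in Zfp982 and Zfp985, with a median of 42.9%, and was under 50% in 11 of 19 members. Rex2 shared 73.8% of its stretches with Zfp600. Sharing also reached genes outside the window, as Zfp987 shared 70.8% of its stretches with Gm8935 and Zfp991 64.1% with Znf41-ps. How reads that map to several genes were counted is not given in the sources used here. Counts of near-identical members such as Rex2, Zfp600, Zfp991 and Zfp993 may thus be split between them, and reads of genes outside the window may enter member counts. Among the 6 most abundant members the share of unique stretches was 80.2% in Zfp979, 95.3% in Zfp985, 91.5% in Zfp990, 40.3% in Zfp988, 46.4% in Zfp534 and 65.5% in Zfp992.

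Library totals ran from 7.10 to 20.8 M (mega) counts, the smallest being wt line 2 at day 2.5, and 3 counts correspond to 0.422 counts per M counts of the library total there and 0.144 in the deepest library. Levels are given as counts per M counts scaled by TMM composition factors (CPM). Smchd1 itself was lower in every het library than in any wt library of the same day (89.4 to 101 against 131 to 149 CPM at day 0). Summed pluripotency markers (Pou5f1, Sox2, Nanog, Zfp42, Esrrb) went from 2323 to 2635 CPM at day 0 to 281 to 553 at day 3. Summed NMP markers (T, Cdx2, Nkx1-2, Sox2) were at 211 to 281 CPM at day 0 and went from 47.8 to 90.5 at day 2 to 482 to 929 at day 2.5. From day 2 to day 2.5, 3 of the 4 rose in each genotype and Sox2 fell (log2 fold change -0.70 in wt and -0.45 in het). Summed markers of extraembryonic endoderm (18 genes, among them Gata4, Gata6, Sox17 and Dab2) were present from day 0, at 1376 to 3977 CPM, and reached 4636 to 15617 at day 2, most of it from the matrix genes Lama1, Lamb1, Col4a1, Col4a2 and Sparc, which other cells also express. At day 2 the wt means were 2677 CPM for Lama1 and 2656 for Col4a1 against 66.3 for Gata4, 43.2 for Gata6 and 15.2 for Sox17, and Afp, Apoa1 and Ttr reached at most 1.30 CPM in any library. Nothing in the labels says that the libraries are separate inductions, so p-values measure the spread between lines.

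Coding members carried nearly all of the signal of the window, 99.5% of its CPM over all libraries. The 6 most abundant, Zfp979, Zfp985, Zfp990, Zfp988, Zfp534 and Zfp992, made up 67.0%, with 17.5% from Zfp979 and 13.2% from Zfp985. Per kilobase of exon, the wt day 0 level was 78.5 CPM for Zfp985, 60.3 for Zfp988, 56.7 for Zfp990, 55.9 for Zfp979 and 52.9 for Zfp534, against 5.17 for Zfp991 and 4.45 for Zfp986 at the low end. Noncoding members reached at most 5.39 CPM, in Gm13166. Gm13236 and C230088H06Rik had no counts in any library, and 10 members had under 300 counts over all libraries together. In all, 23 members passed the filter on low counts in at least 1 comparison of days, including all 19 coding ones in each, while Gm26763, Gm13236, Gm26573, Gm13165, Gm26880, 1700095A21Rik and C230088H06Rik never did.

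Transcripts of the cluster declined throughout differentiation in both genotypes. Summed over the 30 members, the wt lines 1, 2 and 3 held 1552, 1748 and 1613 CPM at day 0, 776, 978 and 725 at day 2, 448, 496 and 545 at day 2.5, and 306, 280 and 491 at day 3. The het lines held 2199, 1943 and 2491 CPM at day 0, 1308, 1136 and 1362 at day 2, 547, 623 and 862 at day 2.5, and 395, 533 and 430 at day 3. The sum went down at every step in each of the 6 lines. The ratio of day 0 to day 3 was 5.07, 6.25 and 3.28 in the wt lines and 5.57, 3.65 and 5.79 in the het lines, so the genotypes overlapped in it. In bulk RNA, fewer cells that express the cluster and less RNA per cell cannot be told apart.

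**Figure D1:**
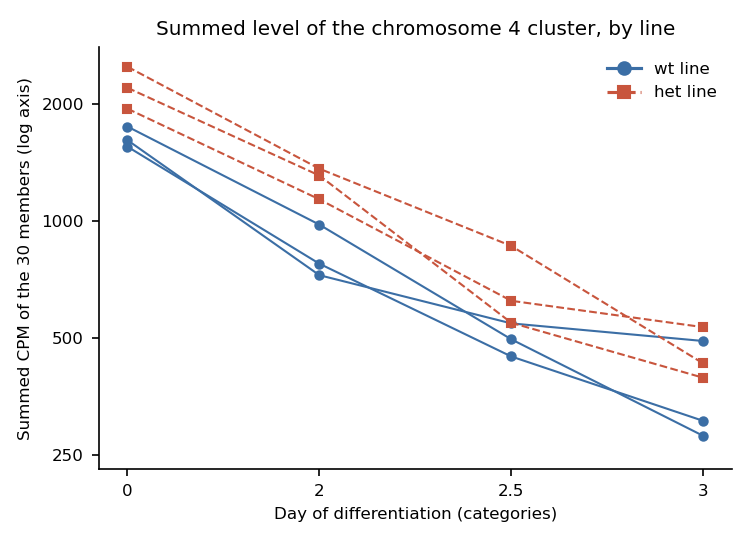
Summed CPM of the 30 members (vertical axis, log scale) by day (horizontal axis, spaced as categories), 1 line of points for each of the 3 wt and 3 het cell lines. Each cell line goes down at every step, and the het lines start at 1943 to 2491 CPM against 1552 to 1748 in wt.

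The first step, from pluripotent mESCs to day 2, lowered most coding members. In wt, 16 of 22 members tested were lower at day 2 than at day 0 and 0 were higher, against 21.9% of all 15521 genes lower and 22.4% higher. The median log2 fold change of the members was -1.02. In het, 16 of 23 were lower and 0 higher, against 28.1% and 28% of all 15303 genes, with a median of -0.83. Counts of calls are from the edgeR quasi-likelihood test at a Benjamini-Hochberg adjusted p under 0.05 over all genes tested. Of the 19 coding members, which were tested in every comparison of days, 15 fell in each genotype. The remaining 1 of the 16 was the noncoding Gm16211, which passed the filter on low counts only through day 0, where it is high, so its direction was set by the filter and its call adds nothing. Of the 6 comparisons of days, none had a member that was higher, also at an unadjusted p under 0.05 and with DESeq2. With the line as a block, 1 member, Zfp991, was higher at day 3 than at day 2.5 in wt.

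After Wnt activation the decline went on, and some counts of calls depended on single lines. From day 2 to day 2.5, 9 of 21 members were lower in wt (14.5% of all genes lower, 14.6% higher) with a median log2 fold change of -0.56, and 16 of 22 in het (22.9% lower, 21.8% higher) with a median of -0.84. Without wt line 2, whose day 2.5 library was the smallest, the wt count was 4. From day 2.5 to day 3, 5 of 21 were lower in wt (10.1% lower, 8.99% higher) with a median of -0.44, and 11 of 21 in het (16% lower, 13.8% higher) with a median of -0.58. At this last step the wt count was 0 without line 2, 3 without line 3 and 9 (8 lower, 1 higher) with the line as a block, and the het count was 2 without line 3. Gaps in calls between the genotypes do not show that the step itself differs.

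**Figure D2:**
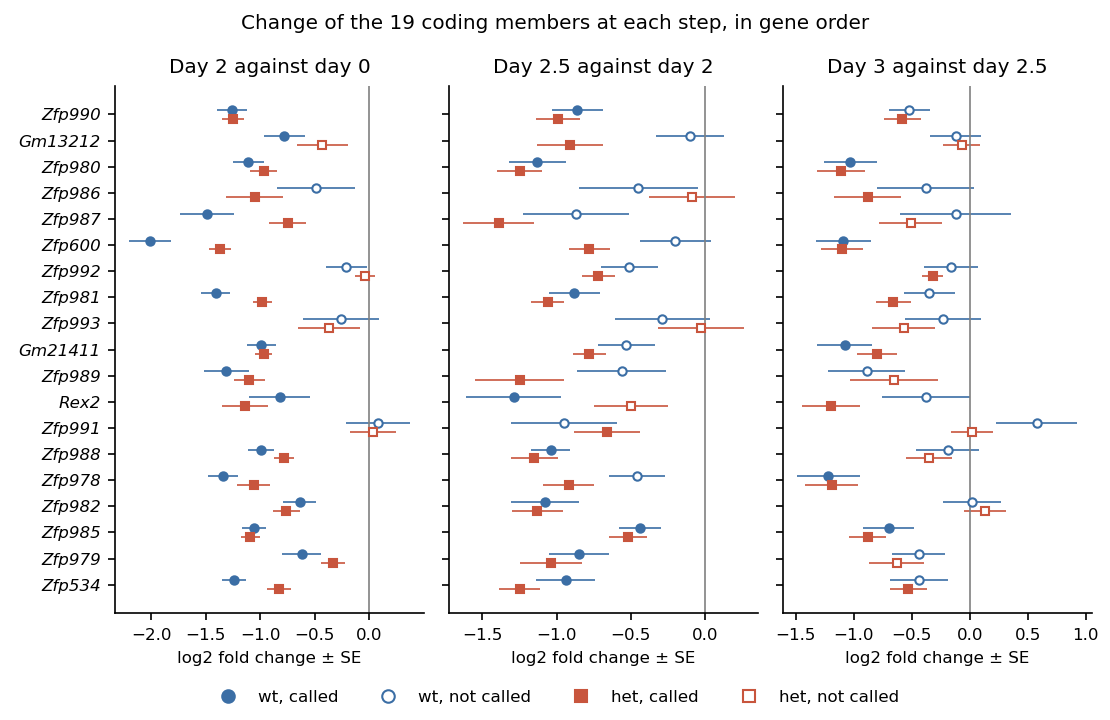
Log2 fold change of each of the 19 coding members (horizontal axis) over the 3 steps between days, wt as circles and het as squares, bars for ± SE, and filled symbols where the change was called. Nearly all coding members lie left of 0 at the step from day 0 to day 2, with Zfp991, Zfp992 and Zfp993 near 0.

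Zfp979, the most abundant member, was lower at day 2 than at day 0 and lower again at day 2.5, with lines that differed in how much they lost at each step. In wt lines 1, 2 and 3 it was at 220, 251 and 218 CPM at day 0, 124, 210 and 113 at day 2, 88.0, 73.3 and 86.3 at day 2.5, and 42.1, 50.7 and 89.3 at day 3. In het it was at 367, 299 and 400, then 280, 233 and 332, then 88.0, 124 and 207, then 69.6, 110 and 95.7. Day 0 and day 2 did not overlap in wt and overlapped in het. The log2 fold change from day 0 to day 2 was -0.62 ± 0.18 (SE, edgeR adjusted p = 0.012) in wt and -0.33 ± 0.11 (adjusted p = 0.021) in het, and both calls were lost with DESeq2 (adjusted p = 0.075 and 0.12). From day 2 to day 2.5 it was -0.85 ± 0.20 (adjusted p = 0.0059) in wt and -1.04 ± 0.21 (adjusted p = 0.0014) in het.

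Zfp985 and Zfp980 were lower in all 6 comparisons, though not under every alternative. The call of Zfp985 from day 2 to day 2.5 in wt was lost with library totals (edgeR adjusted p = 0.051), in a single fit of all 24 libraries (0.055) and without any 1 of the wt lines (0.066 to 0.11), its call for that step in het without line 1 (0.093), and its last call in wt without line 2 (0.39). The last call of Zfp980 in het was lost without line 3 (0.052), and no member was called at the last step in wt without line 2. Zfp985 in wt was at 219, 241 and 216 CPM at day 0, 99.5, 120 and 104 at day 2, 65.3, 91.0 and 82.6 at day 2.5, and 40.6, 37.7 and 68.3 at day 3. In het it was at 293, 253 and 344, then 140, 130 and 147, then 77.3, 93.1 and 124, then 44.7, 64.4 and 53.4. In both genotypes each day lay below the day before it in every library, apart from wt day 3 line 3 at 68.3, which lies above wt day 2.5 line 1. Its first step was nearly alike in wt (-1.06 ± 0.11, edgeR adjusted p = 3.6e-06) and het (-1.09 ± 0.09, adjusted p = 1.1e-07). Zfp980 went from 60.0 to 71.2 CPM in wt at day 0 to 5.29 to 8.23 at day 3, and from 77.6 to 86.5 to 6.40 to 11.3 in het, a ratio of means of 9.67 and 9.83.

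Zfp990, at the left edge of the window, and Zfp988 fell over each of the first 2 steps in both genotypes. Zfp990 in wt was at 176, 211 and 208 CPM at day 0, 70.4, 101 and 76.0 at day 2, 49.7, 37.3 and 48.8 at day 2.5, and 26.9, 27.8 and 40.5 at day 3. In het it was at 287, 252 and 340, then 135, 107 and 126, then 48.3, 58.5 and 82.4, then 37.7, 49.2 and 41.1. Days 0, 2 and 2.5 did not overlap within either genotype. The first step was -1.26 ± 0.14 (edgeR adjusted p = 6e-06) in wt and -1.25 ± 0.10 (adjusted p = 6.8e-08) in het, and the second -0.86 ± 0.17 (adjusted p = 0.002) and -0.99 ± 0.15 (adjusted p = 0.00012). The third was called in het (-0.58 ± 0.16, adjusted p = 0.019) and not in wt (-0.52 ± 0.18, adjusted p = 0.07).

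Zfp988 in wt was at 156, 191 and 160 CPM at day 0, 82.4, 94.8 and 77.2 at day 2, 40.3, 41.4 and 42.4 at day 2.5, and 26.8, 24.7 and 56.9 at day 3. In het it was at 236, 206 and 265, then 139, 124 and 145, then 47.8, 52.7 and 86.8, then 43.8, 62.2 and 42.8. The libraries of days 2.5 and 3 overlapped in both genotypes, and those of earlier days did not. The first 2 steps passed the test in wt (-0.99 ± 0.12, edgeR adjusted p = 1.6e-05, and -1.04 ± 0.13, adjusted p = 0.00014) and in het (-0.78 ± 0.09, adjusted p = 1.9e-06, and -1.15 ± 0.16, adjusted p = 6.8e-05). The third did not, at -0.19 ± 0.27 in wt (adjusted p = 0.65) and -0.35 ± 0.20 in het (adjusted p = 0.21).

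Zfp534, the last member at the right edge, was at 140, 153 and 165 CPM at day 0 in wt, 61.5, 71.5 and 59.7 at day 2, 26.5, 27.8 and 45.7 at day 2.5, and 23.1, 18.4 and 32.3 at day 3. In het it was at 183, 159 and 225, then 103, 96.3 and 118, then 33.6, 45.8 and 56.1, then 32.4, 35.7 and 27.3. Days 0, 2 and 2.5 stood apart in each genotype, and day 3 overlapped day 2.5. Its first step was -1.24 ± 0.11 (edgeR adjusted p = 1.5e-06) in wt and -0.83 ± 0.11 (adjusted p = 1e-05) in het.

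Zfp992, sixth in abundance, kept its level for longer. In wt it was at 91.8, 60.6 and 84.2 CPM at day 0, 76.9, 80.1 and 46.6 at day 2, 44.3, 48.6 and 50.2 at day 2.5, and 42.5, 26.6 and 59.1 at day 3. In het it was at 89.9, 95.0 and 101, then 103, 80.6 and 92.9, then 55.8, 53.6 and 61.4, then 45.6, 48.4 and 45.4. Day 0 and day 2 overlapped in both genotypes. The first step was -0.21 ± 0.19 in wt (edgeR adjusted p = 0.41) and -0.04 ± 0.09 in het (adjusted p = 0.76), and the later steps were called in het alone (-0.72 ± 0.11, adjusted p = 9.2e-05, and -0.32 ± 0.09, adjusted p = 0.018). Its neighbours in sequence had like values at the first step. Zfp991 changed by 0.08 in wt and 0.03 in het on the log2 scale and Zfp993 by -0.26 and -0.37, none past the test. Zfp993 shared 75.4% of its 75-base stretches with Zfp991.

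**Figure D3:**
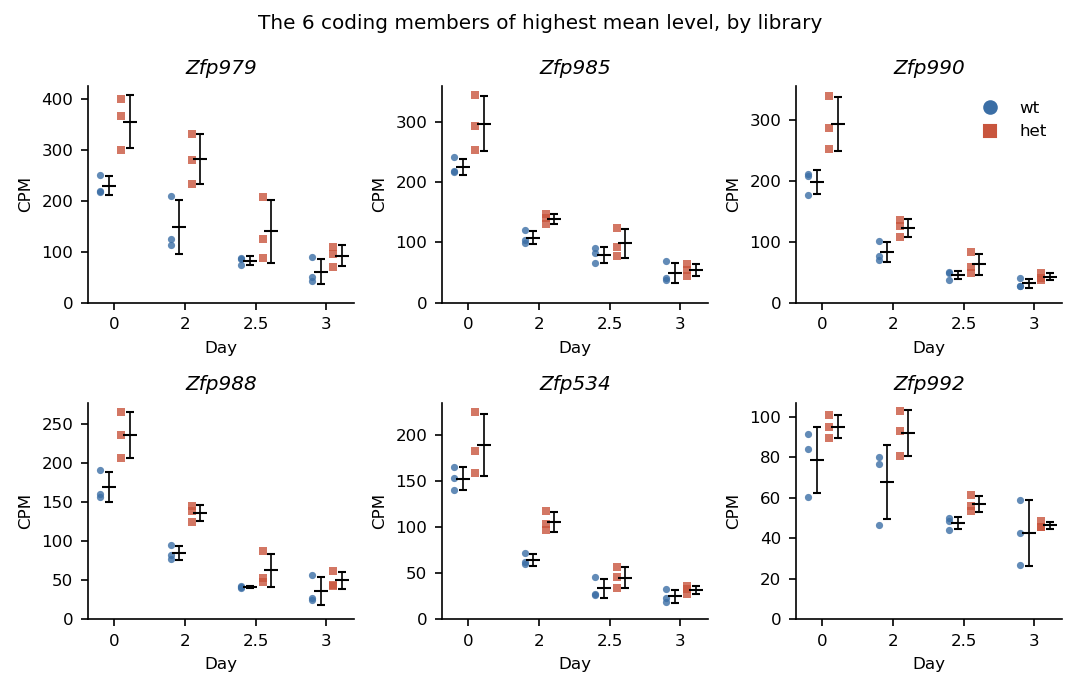
CPM (linear vertical axis) in each library for the 6 most abundant members by day (horizontal axis), with points for single lines and black bars for the mean ± SD of 3 lines, wt as blue circles and het as red squares. Zfp985 and Zfp990 step down from day to day, while Zfp992 at day 0 and day 2 overlaps in both genotypes.

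Among the coding members, Zfp600 had the largest called fall of the first step in both genotypes. It had 928, 986 and 666 counts in the wt libraries of day 0 and 323, 281 and 198 at day 2, and 1211, 1065 and 1119 against 463, 402 and 436 in het. Scaled, these are 54.8 ± 5.78 CPM (SD, n = 3) against 13.6 ± 3.27 in wt and 69.3 ± 2.92 against 26.7 ± 2.42 in het. The days did not overlap, and the log2 fold change was -2.01 ± 0.19 (edgeR adjusted p = 1.6e-06) in wt and -1.37 ± 0.10 (adjusted p = 3e-08) in het. Zfp987 fell by 1.49 in wt over the same step (adjusted p = 0.00022) and in het most from day 2 to day 2.5 (-1.39 ± 0.24, adjusted p = 0.00034), from 21.1 to 32.8 CPM to 8.40 to 16.3. Zfp978 fell both early, at -1.34 ± 0.14 in wt (adjusted p = 5.3e-06) and -1.06 ± 0.15 in het (adjusted p = 2.6e-05) from day 0 to day 2, and late, at -1.22 ± 0.27 (adjusted p = 0.012) and -1.19 ± 0.23 (adjusted p = 0.0032) from day 2.5 to day 3.

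Rex2, whose printed promoter stretch is that of Zfp600, fell with it at the first step in wt (-0.82 ± 0.28, edgeR adjusted p = 0.029) and het (-1.14 ± 0.21, adjusted p = 0.00031). From day 2.5 to day 3 both fell in het, Zfp600 by 1.10, while in wt Zfp600 fell (-1.09 ± 0.24, adjusted p = 0.011) and Rex2 was not called. In wt the largest called fall of Rex2 was from day 2 to day 2.5 (-1.29 ± 0.32, edgeR adjusted p = 0.0096), when Zfp600 changed by -0.20 and was not called, and in het from day 2.5 to day 3 (-1.20 ± 0.25, adjusted p = 0.0043). As Rex2 and Zfp600 share most of their transcript sequence, any difference in their timing is uncertain. Zfp982 fell at the second step in wt (-1.08 ± 0.23, adjusted p = 0.0037) and het (-1.13 ± 0.17, adjusted p = 0.00011), and Zfp989 at that step in het (-1.25 ± 0.30, adjusted p = 0.0037). Zfp980 fell at the second step in wt (-1.13 ± 0.19, adjusted p = 0.00084) and het (-1.25 ± 0.15, adjusted p = 1.6e-05) and at the last step in het (-1.11 ± 0.21, adjusted p = 0.0024). Gm21411 was among the falls of the last step in wt (-1.08 ± 0.24, adjusted p = 0.012). Of the noncoding members, Gm16211 went from 17 to 57 counts in the wt libraries of day 0 to 9, 2 and 0 at day 2, and is given as counts alone. Gm13166, 4933438K21Rik and Gm26624 were tested and not called.

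Among coding members, day 0 exceeded day 3 least in those not called at the first step in either genotype. The change from day 0 to day 3 contains the first step, so this follows in part from the grouping. The ratio of means was 1.84 in wt and 2.05 in het for Zfp992, 1.71 and 1.91 for Zfp993, and 1.23 and 1.49 for Zfp991. It was 9.87 and 9.26 for Zfp600, 8.18 and 8.78 for Zfp978, and 3.78 and 3.88 for Zfp979. Zfp993 was the coding member called lower in none of the 6 comparisons.

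The decline was also counted with sequence likeness in mind. The 5 coding members with at least 75% unique stretches (Zfp990, Zfp981, Zfp982, Zfp985 and Zfp979) all fell at the first step in both genotypes, beside 21.9% of all genes in wt and 28.1% in het, with medians of -1.06 in wt and -0.98 in het. Of the 14 others, 10 fell in each genotype, with medians of -0.99 and -0.90. Zfp981 went from 114 to 138 CPM in wt at day 0 to 41.6 to 52.4 at day 2, and from 141 to 176 to 74.7 to 80.3 in het.

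The interaction of genotype and day is the difference between the het over wt ratios of a pair of days, so it uses the values by which the window was chosen, and nothing about the members is read from it. In the fit across all genes, 0 of 24 members were called for day 2 against day 0, 0 of 23 for day 2.5 against day 2 and 0 of 22 for day 3 against day 2.5, and the share of all genes called was 0% in each (edgeR). At an unadjusted p under 0.05 there were 4, 2 and 0 members, beside 1034 of 16387, 850 of 16569 and 635 of 16486 genes, and DESeq2 called 0 members. At the first step these were Zfp987 (0.75 log2), Zfp600 (0.65), Zfp981 (0.44) and Zfp534 (0.42), and at the second Gm13212 (-0.80) and Zfp600 (-0.57). The smallest adjusted p of a member was 0.754 at the first step and 0.952 at the second (edgeR), so no direction is read from them. These values do not show that a step differs between the genotypes, nor that it is equal.

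Other zinc finger genes and the genes around the window are set beside the members for the first step, at which 21.9% of all genes fell in wt and 28.1% in het. Among 350 genes outside the window with a Zfp symbol, 94 of 325 tested fell in wt (28.9%) and 45 rose, with a median of -0.11, and 118 of 324 fell in het (36.4%) and 54 rose, with a median of -0.16. On chromosome 13, which holds another large cluster of such genes, 10 of 29 fell in wt (34.5%) and 15 of 29 in het (51.7%). On chromosome 17, 9 and 10 of 41 fell (22% and 24.4%), near or below the share of all genes. Of 221 genes within 5 Mb of either edge, 40 of 125 tested fell and 23 rose in wt, with a median of -0.30, and 41 of 124 fell and 28 rose in het, with a median of -0.08. These counts stand beside those of the members as descriptions, and the difference between lists was not tested. Of 9 other KRAB zinc finger genes with a described role, among them the imprint protectors Zfp57 and Zfp445 and the retroviral silencer Zfp809, 4 fell in wt and 5 in het at the first step.

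Most of the partners through which KRAB proteins act fell at the same step. Of 21 genes for co-repressors and linked chromatin proteins, 14 fell and 4 rose in wt (21.9% and 22.4% of all genes), and 14 fell and 5 rose in het (28.1% and 28%). Trim28, the scaffold that KRAB domains bind, was at 2552 to 2766 CPM at day 0 in wt and 691 to 715 at day 2, and at 2372 to 2703 and 770 to 801 in het, with no overlap. Its log2 fold change was -1.92 ± 0.08 (edgeR adjusted p = 1.2e-09) in wt and -1.69 ± 0.05 (adjusted p = 1.7e-12) in het. From day 2 to day 2.5 Trim28 rose in wt (0.41 ± 0.13, adjusted p = 0.031) and was not called in het (0.14 ± 0.08, adjusted p = 0.15), and from day 2.5 to day 3 it fell in both (-0.78 ± 0.14, adjusted p = 0.0048, and -0.58 ± 0.09, adjusted p = 0.00069). Setdb1 fell less (-0.45 ± 0.11, adjusted p = 0.0034, in wt and -0.55 ± 0.07, adjusted p = 1.3e-05, in het), and Dnmt3l, a cofactor of de novo DNA methylation, fell by 1.87 and 1.59.

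Cell-type markers moved over the same days. At the first step 21.9% of all genes fell and 22.4% rose in wt, and 28.1% and 28% in het. From day 2 to day 2.5, 14.5% of all genes fell in wt and 22.9% in het. All 5 pluripotency markers fell at the first step in each genotype, with medians of -2.56 in wt and -2.43 in het. Of 3 epiblast markers (Fgf5, Otx2, Dnmt3b), 1 rose in wt and 2 in het at that step, and 3 fell from day 2 to day 2.5 in each genotype. Of 15 extraembryonic endoderm markers tested, 12 rose at the first step in each. The part of these shifts in the decline of the cluster was not tested.

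The values by which the window was chosen were as follows. At day 0, 21 of 22 members fitted were higher in het than in wt, with a median log2 ratio of 0.33, and in 11 of them each of the 3 het lines exceeded each wt line, against 8.62% of all genes. At day 2, 21 of 23 were higher, with a median of 0.57, and 12 did not overlap (7.67% of all genes). At day 2.5, 19 of 21 were higher, with a median of 0.32, and 7 did not overlap (6.49%). At day 3, 19 of 21 were higher, with a median of 0.26, and in 0 did the lines stand apart (8.06%). With the 4 days of each line summed, 23 of 26 were higher, with a median of 0.33, and 12 did not overlap (7.12%). No member had the reverse order, each het line below each wt line, on any day. Among all genes this reverse order was also uncommon: 1195, 1263, 816 and 920 genes had it, from day 0 to day 3, out of 15108, 15414, 15588 and 15686 fitted. As the window was chosen for higher het values, nothing is read from its absence among the members.

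Zfp600, Zfp981, Zfp988 and Zfp979 had each het line above each wt line on 3 of the 4 days. The share of all genes with that order on 3 days was not counted, and on single days it was 6.49% to 8.62%. This is the contrast by which the window was chosen. The log2 ratios of Zfp979 were 0.61, 0.91, 0.76 and 0.59 in order of day. Zfp987 had the largest ratio at day 2 among coding members, 1.27, at 21.1 to 32.8 CPM in het against 6.76 to 15.4 in wt, while Zfp993 had -0.07. Only 12.6% of the 75-base stretches of Zfp987 were unique to it, so its counts may hold reads of other genes. Of the coding members with at least 75% unique stretches, 4 of 5 did not overlap at day 0 and 4 of 5 at day 2, and of the other coding members 7 and 8 of 14, beside 8.62% and 7.67% of all genes.

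**Figure D4:**
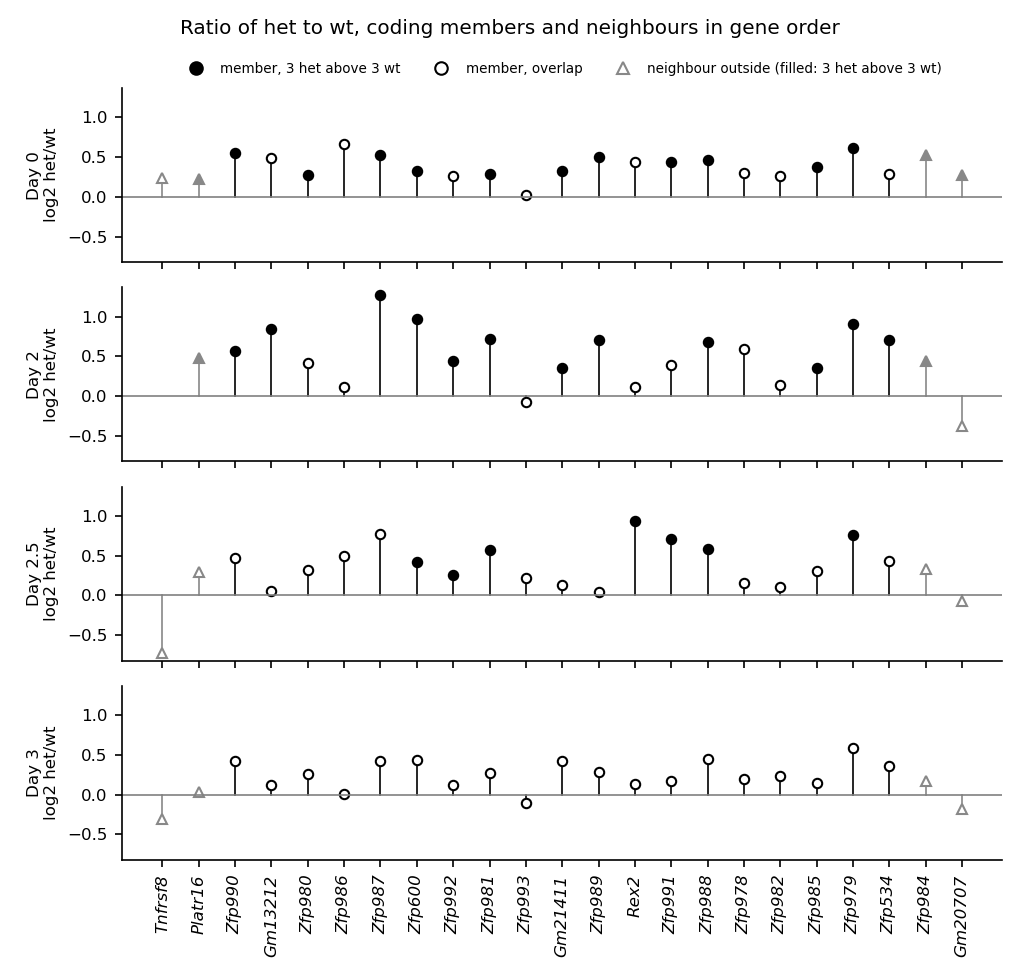
Log2 ratio of het over wt (vertical axis) for each coding member (circles) and 4 neighbours outside the window (grey triangles) in chromosome order, 1 panel for each of the 4 days, with filled symbols where the het lines lay above the wt lines without overlap. The circles lie mostly above 0 along the whole window, with medians over all fitted members of 0.33 at day 0 and 0.57 at day 2, and no circle is filled at day 3.

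Genes just inside and just outside the edges had the following ratios. The first member inside, Zfp990, had a log2 ratio of 0.55 at day 0 and the last, Zfp534, 0.29. Outside, Zfp984, 51.4 kb beyond the right edge and with the promoter run of the members, had 0.53 at day 0 and 0.44 at day 2, with the 3 het lines clear of the wt lines on both days. Gm20707, which overlaps the coordinates of Zfp984, had 0.28 at day 0, without overlap, and -0.37 at day 2. On the left, Platr16, a noncoding gene at 61.0 kb, had 0.23 and 0.48, also without overlap on both days, and Tnfrsf8 at 195.6 kb had 0.24 at day 0, with overlapping lines, -0.72 at day 2.5 and -0.31 at day 3. From day 0 to day 2, Zfp984 fell in wt (-1.02 ± 0.15, edgeR adjusted p = 7.7e-05) and het (-1.11 ± 0.09, adjusted p = 3.8e-08). The fall was not particular to it among these neighbours. The log2 fold changes of Platr16 (-1.62 in wt and -1.38 in het) and of Gm20707 in het (-0.69) were called as well, while Gm20707 in wt (-0.03) was not. Tnfrsf8 was called too (-3.15 in wt and -3.10 in het). It was below the filter on low counts at day 2, with 3 to 17 counts in a library, so its call is not read.

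Beyond the window, het values clear of and above wt were found in 5.74%, 11.2%, 4.92% and 11.5% of the flanking genes, in order of day. Among other zinc finger genes the shares were 20.4%, 6.81%, 11.2% and 4.27%, with 44.8%, 13.8%, 13.3% and 3.33% for those on chromosome 13 and 31.7%, 9.76%, 29.3% and 7.32% for those on chromosome 17. The endoderm markers moved with genotype as well. Of the 15 fitted, 10 at day 0 and 14 at day 2 had every het line below every wt line, 0 at day 2.5 and 2 at day 3, beside 1195 of 15108 genes at day 0 and 1263 of 15414 at day 2 in that order, and their sum at day 2 was 4636 to 6439 CPM in het against 7652 to 15617 in wt. Their part in the higher cluster level of het lines was not tested. Lines of both genotypes had a Cast mother and a C57BL/6 father, so each line had a copy of the cluster from each parent. Reads were aligned to the C57BL/6 reference, and alleles were not told apart here. The paper mentions some FVB genome in MMTV-Cre animals, and whether lines differed in it at the cluster was not examined.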

How the data were processed

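Poly(A) RNA was sequenced as 75-base single-end reads from 24 libraries. The authors trimmed reads with Trim Galore 0.4.4, aligned them with HISAT2 2.0.5 to GRCm38.p6 and counted them per gene in SeqMonk. The deposited table holds raw read counts with no normalization. Its 8 columns of group means were not used, nor were the authors' log2 tables, which list no gene of the window. Libraries were made with a stranded or a non-stranded TruSeq kit, and which kit each library had is not given in the sources used here. Totals ran from 7.10 to 20.8 M (mega) counts, and intervals or floors of 3 counts cover counting error only.

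Counts were tested with edgeR 4.0.16 in R 4.3.3 (TMM, filterByExpr by group, quasi-likelihood test, Benjamini-Hochberg adjusted p under 0.05 over all genes tested). Each step between neighbouring days was fitted within a genotype, and the interaction over both. DESeq2 1.42.0, other scalings, no filter beyond 1 count, a single fit of all 24 libraries, the line as a block and leaving out each line were alternatives. The scripts were tested on simulated data. The members, lists and tests were chosen with earlier results of these data known. Libraries of a line over days are paired by design, with residual correlations from -0.068 to 0.313 between neighbouring days, while wt and het lines with the same number are different lines.

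Values in every library are given for the 6 coding members of highest mean CPM, which include Zfp988 and Zfp534. For each step the 3 largest called falls are named, and further members named for contrast were chosen after their values were seen. Promoter sequences are RefSeq's (GRCm38.p6), and coding sequences and 75-base uniqueness came from GENCODE vM21, in which 29 of the 30 members had the coordinates of the table. Gm21411 differed and was left out of levels per kilobase.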

Additional observations from a re-analysis of the deposited data

How the results depend on the processing

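Of the fold changes of named members recomputed under the alternatives, 425 kept their side of the threshold, 36 lost it, 16 gained it and 0 reversed. For day 2 against day 0, leaving out 1 line gave 13 to 15 members called in wt and 14 to 17 in het, for day 2.5 against day 2, 4 to 10 in wt and 13 to 16 in het, and for day 3 against day 2.5, 0 to 5 in wt and 2 to 11 in het. With the line as a replicate block, 9 members were called for day 3 against day 2.5 in wt in place of 5, and no other count of members moved by over 1.5 times in that setting. Leaving out a line moved some counts by more, as the ranges above show. The median log2 ratio of het over wt at day 2 was 0.737 without wt line 2. Leaving out 1 line moved it from 0.271 to 0.399 at day 0, 0.493 to 0.737 at day 2, 0.221 to 0.455 at day 2.5 and 0.103 to 0.464 at day 3. Members with few counts are limited by depth, such as Gm16211 with 9, 2 and 0 counts in wt at day 2.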
